A study of Mus musculus with 19 samples.

Results

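Hotspots were described at which H3K4me3 lay on both homologs of a hybrid mouse while DMC1 lay on the chromosome from SPRET/EiJ. They came from the testis of B6/SPRT, the male F1 of a C57BL/6 (B6) female and a SPRET/EiJ (SPRT, Mus spretus) male, which carries the Prdm9 alleles of both parents. A hotspot entered the set when it was autosomal, was attributed by the authors to the B6 allele of PRDM9, had under 25% of its DMC1 reads from the B6 chromosome, and had 25 to 75% of its H3K4me3 reads from the B6 chromosome. These discordant hotspots numbered 655. They were 25.8% of the 2541 autosomal B6-allele hotspots of B6/SPRT for which both fractions were listed (95% Wilson interval 24.1 to 27.5%), out of 4122 B6-allele and 18522 autosomal hotspots. The hotspots were thus chosen by the measured DMC1 and H3K4me3 fractions, and values of these fractions below are descriptions that support nothing.

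PRDM9 is a zinc-finger protein of meiotic germ cells that binds particular DNA sequences and trimethylates lysine 4 of histone H3 (H3K4me3) beside them. The programmed double-strand breaks (DSBs) of meiosis form at a subset of these sites, and the recombinase DMC1 coats the single-stranded ends while they search the homolog for a template. Where the homologs of a hybrid differ in sequence, PRDM9 can bind them unequally, and such sites are known as asymmetric hotspots. H3K4me3 read by homolog thus follows where PRDM9 acted, and DMC1 read by homolog follows which chromosome was cut and not yet repaired.

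DMC1 was measured by single-stranded DNA sequencing (SSDS), with 1 library for each of 5 hybrid genotypes, and H3K4me3 by ChIP-seq of the SPRT hybrids with input, with 2 samples of each kind for B6/SPRT. STUS/B6 is the male F1 of B6 and STUS/Jpia, a wild-derived Mus musculus musculus strain, and carries the B6 and STUS alleles, so the B6 allele of PRDM9 acts there on another partner genome. Hum/SPRT, CAST/SPRT and STUS/Hum are the same crosses with the B6 allele of Prdm9 replaced by one with the human or the Mus musculus castaneus version. All samples were whole adult testis, in which germ cells of every stage and somatic cells are mixed. With 1 DMC1 library per genotype and 1 column of H3K4me3 values there is no replicate error, so no test was made. Wilson intervals cover counting error only, and counts over the 19 autosomes show only how values vary along the genome of 1 library. The DMC1 signal (the authors' heat) and the H3K4me3 enrichment over input are relative values, and no source used here gives the scaling of heat between libraries.

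Centers of 4 discordant hotspots fell inside the window of 300 bases at a RefSeq gene start (250 bases before and 50 after it), and the reference sequence is shown for these, since it is the B6 homolog, the chromosome that kept H3K4me3 and was little cut. Positions are in GRCm38 (mm10), the sequence runs in the direction of the gene, and capitals mark the 41 bases around the hotspot center. Gm31493 (chr1:160025714-160026013, minus strand) and Gm9946 (chr6:117559447-117559746, plus strand) are gene models without a known role. Gpld1 (chr13:24942902-24943201, plus strand) encodes a phospholipase that cleaves glycosylphosphatidylinositol anchors, and Spata13 (chr14:60732654-60732953, plus strand) a guanine nucleotide exchange factor.
Gm31493: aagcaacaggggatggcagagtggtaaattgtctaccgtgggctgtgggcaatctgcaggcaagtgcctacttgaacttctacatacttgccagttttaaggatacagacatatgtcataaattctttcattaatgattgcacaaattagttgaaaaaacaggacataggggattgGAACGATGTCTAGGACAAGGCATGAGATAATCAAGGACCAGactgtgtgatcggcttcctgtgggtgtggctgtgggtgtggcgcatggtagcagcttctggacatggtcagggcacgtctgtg
Gm9946: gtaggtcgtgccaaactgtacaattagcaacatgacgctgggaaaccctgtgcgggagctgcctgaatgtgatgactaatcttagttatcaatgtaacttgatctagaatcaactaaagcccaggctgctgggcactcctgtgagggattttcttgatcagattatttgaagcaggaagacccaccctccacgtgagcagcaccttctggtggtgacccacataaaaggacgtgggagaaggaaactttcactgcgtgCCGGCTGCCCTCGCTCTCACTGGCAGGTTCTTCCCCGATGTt
Gpld1: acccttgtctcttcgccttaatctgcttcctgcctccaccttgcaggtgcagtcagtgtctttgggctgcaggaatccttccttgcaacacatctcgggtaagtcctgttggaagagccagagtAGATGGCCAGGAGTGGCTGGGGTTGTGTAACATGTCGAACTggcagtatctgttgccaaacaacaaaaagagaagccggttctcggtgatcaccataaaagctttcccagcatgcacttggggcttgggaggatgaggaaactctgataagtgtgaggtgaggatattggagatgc
Spata13: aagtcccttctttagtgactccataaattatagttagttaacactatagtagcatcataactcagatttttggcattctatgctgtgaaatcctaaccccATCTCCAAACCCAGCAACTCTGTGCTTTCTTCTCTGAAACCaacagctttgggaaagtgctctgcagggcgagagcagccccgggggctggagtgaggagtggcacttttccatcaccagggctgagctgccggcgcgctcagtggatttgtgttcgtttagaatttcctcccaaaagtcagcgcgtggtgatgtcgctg

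The Gm31493 hotspot had a DMC1 signal of 316.5 and an H3K4me3 enrichment of 11.3, with 11.7% of DMC1 reads and 28.9% of 536 H3K4me3 reads from B6. At Gpld1 the DMC1 signal was 59.9 at a higher enrichment of 13.9, and B6 gave 10.4% of DMC1 reads but 54.1% of 529 H3K4me3 reads. Spata13 had a DMC1 signal of 119.6 on a lower enrichment of 9.47, with 14.6% of DMC1 and 31.2% of 231 H3K4me3 reads from B6. Gm9946 had the lowest DMC1 signal of these windows, 49.5, and sat at the edge of the range with 25.1% of 203 H3K4me3 reads from B6. The GC content of the windows was 47.0, 50.7, 51.0 and 49.0% in the order shown, all within the quartiles of 31396 gene start windows (46.0 to 62.0%).

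The split of DMC1 at sites bound on both homologs is described next. These shares use the fractions that chose the set, so they test nothing. The word cut stands for the DMC1 split, which also depends on repair. Of 1376 B6-allele hotspots with 25 to 75% of H3K4me3 from B6 and a listed DMC1 fraction, the 655 discordant ones made up 47.6% (interval 44.97 to 50.2%). Another 633 (46.0%) had 25 to 75% of DMC1 from B6 as well and are called matched here, and 88 (6.395%) had over 75% of DMC1 from B6. In contrast, where H3K4me3 lay under 25% from B6, 907 of 910 hotspots also had under 25% of DMC1 from B6, and these 907 are called SPRT-side. For hotspots of the SPRT allele bound on both homologs, DMC1 leaned less often and more to the other chromosome. Of these, 599 of 3198 (18.7%, interval 17.4 to 20.1%) were cut mainly on B6 and 447 (14.0%) mainly on SPRT. A further 1122 B6-allele hotspots bound on both homologs had no DMC1 fraction listed and could not be placed.

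**Figure D1:**
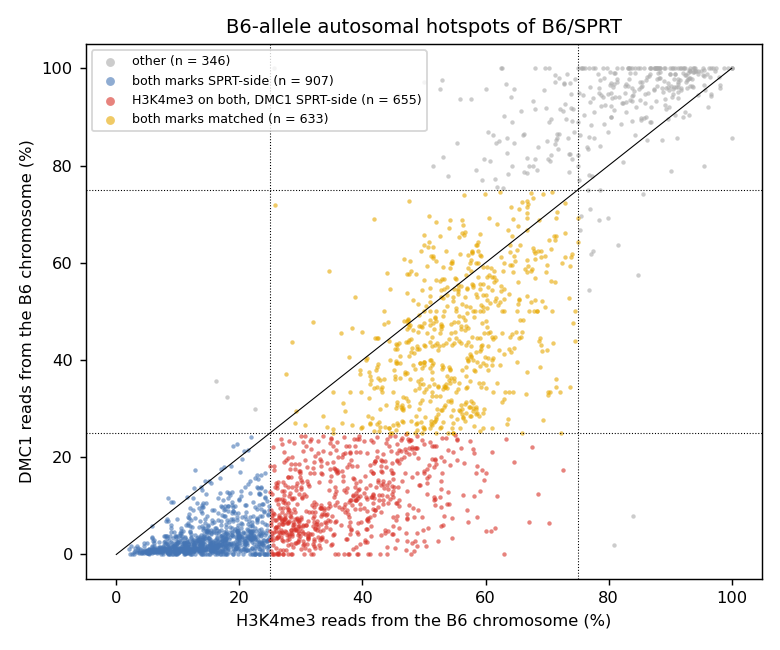
Each point is an autosomal B6-allele hotspot of B6/SPRT with both fractions listed, by the percent of H3K4me3 reads (x axis) and of DMC1 reads (y axis) from the B6 chromosome; dotted lines are the limits of 25 and 75% and the solid line is equality. The 655 discordant hotspots (red) lie below the line, mostly toward the left of their box.

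Within their limits the discordant hotspots were not centered. The DMC1 fraction from B6 had a median of 10.5% (quartiles 5.40 and 17.1%, range 0 to 24.8%), against 44.0% at matched and 2.17% at SPRT-side hotspots. At 311 of the 655 it was under 10%, and at 27 it was 0. The H3K4me3 fraction from B6 had a median of 35.8% (quartiles 29.5 and 44.2%, range 25 to 72.7%), against 54.9% at matched and 14.7% at SPRT-side hotspots. Thus 576 of 655 hotspots (87.9%) had under 50% of H3K4me3 from B6 and 79 had 50% or more. The H3K4me3 fraction exceeded the DMC1 fraction by a median of 25.9 percentage points, and the gap was 9.54 points at matched and 11.0 at SPRT-side hotspots.

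Whether 50% is the neutral point of these reads is not known. At 31 hotspots marked KO in place of an allele the median was 65.4% from B6, at 131 hotspots of any allele with enrichment under 1 it was 56.1%, and at 329 hotspots of any allele within 1 kb of a gene start it was 60.4%. What the mark KO stands for is not given in the sources used here, and over all autosomal hotspots, most of them not of the B6 allele, the median was 59.9%. At the 64 B6-allele hotspots within 1 kb of a gene start it was 40.2%. The name bound on both homologs thus holds for the range of the rule, not for equal binding. The limits were also soft for counting. The bounds of the 95% Wilson interval of an H3K4me3 fraction lay at a median of 6.97 percentage points from its middle (quartiles 5.44 and 9.02), and 420 of 655 hotspots (64.1%) had an interval wholly between 25 and 75%. The interval reached below 25% at 228 hotspots and above 75% at 7, and it included 50% at 187. Since the number of DMC1 reads behind a fraction is unknown, no such interval can be given for DMC1. Fractions at hotspots with a low DMC1 signal may rest on few reads.

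The share of B6-allele hotspots cut mainly on SPRT changed with H3K4me3 in steps that held no gap. In bins of 5 points of the H3K4me3 fraction from B6 it was 99.5% from 20 to 25%, 96.8% from 25 to 30% and 96.2% from 30 to 35%. It was 86.4% from 35 to 40%, 66.0% from 40 to 45% and 41.9% from 45 to 50%. Above that it was 23.1% from 50 to 55%, 11.4% from 55 to 60% and 2.90% from 70 to 75%. Discordant hotspots at the lower limit thus continued the SPRT-side hotspots, while those at 50% or more were a minority of the hotspots with like H3K4me3. The median DMC1 fraction in the same bins went from 7.14% (25 to 30%) through 27.5% (45 to 50%) to 43.7% (55 to 60%), below the H3K4me3 fraction at these places, and it was 78.7% from 70 to 75%, above it.

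**Figure D2:**
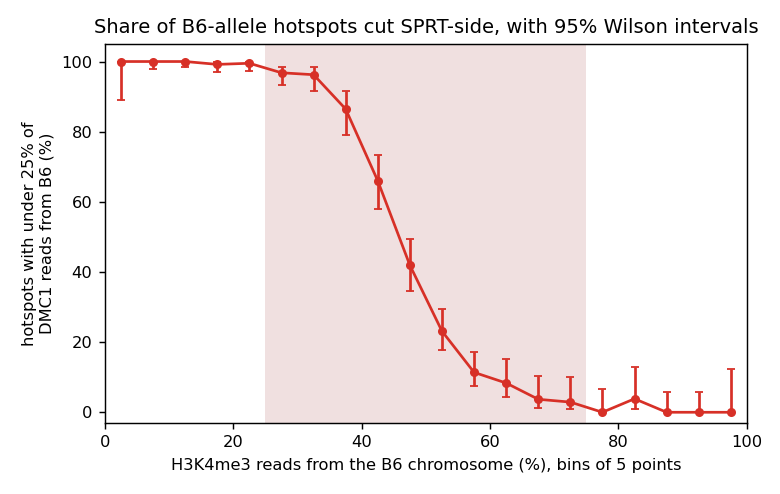
Percent of B6-allele hotspots with under 25% of DMC1 reads from B6 (y axis) in bins of 5 points of the percent of H3K4me3 reads from B6 (x axis), with 95% Wilson intervals as bars; shading marks 25 to 75%. The share falls from 96.8% at 25 to 30% to 2.90% at 70 to 75%, passing 41.9% at 45 to 50%.

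The strength of the DMC1 signal lay between the sets. Its median at the discordant hotspots was 31.8 (quartiles 18.3 and 70.8, range 7.67 to 594.3), against 100.2 at SPRT-side and 24.0 at matched hotspots. The ratio to SPRT-side hotspots was 0.317 and was under 1 on 19 of 19 autosomes. The ratio to matched hotspots was 1.32 and was above 1 on 14 of 19 autosomes, so this difference did not hold across the genome. The discordant hotspots carried 19.7% of the DMC1 signal of B6-allele hotspots with both fractions, less than their share of hotspots (25.8%), and the SPRT-side hotspots 59.7% from 35.7% of hotspots.

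H3K4me3 was weaker at the discordant than at SPRT-side hotspots. The median enrichment was 5.04 (quartiles 3.21 and 8.40, range 0.680 to 35.7), against 6.54 at SPRT-side hotspots, with the lower value on 18 of 19 autosomes. Against matched hotspots (5.76) it was lower on 13 of 19 autosomes, which did not hold across the genome. These rest on a median ChIP coverage of 104 reads with 18 of input, against 141 and 19 at SPRT-side and 120 and 19 at matched hotspots. At 55 of the 655 the enrichment was under 2 and at 3 it was under 1, where H3K4me3 was not above input. When 1 unit of enrichment was taken as background and subtracted before the limits were applied, an alternative chosen after seeing the data, the differences in enrichment were lost or turned. The ratio to SPRT-side hotspots was then 1.02 with the background shared equally by the homologs and 1.11 with the B6 share of the KO hotspots. The ratio to matched hotspots was 1.0 and 1.09. Of the 655 hotspots, 450 and 371 stayed within 25 to 75% under these subtractions, while 197 and 281 fell below 25%.

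The number of H3K4me3 reads that carried a SNP (informative reads) had a median of 174 (quartiles 104.5 and 294.5, range 21 to 2649), and 505 hotspots had at least 100. Matched hotspots had 181 and SPRT-side hotspots 234. The ratio to matched hotspots, 0.961, was above 1 on 10 and below 1 on 9 autosomes, so the sets did not differ beyond the spread between autosomes in the reads on which their H3K4me3 fraction rests. The informative reads exceeded the listed ChIP coverage at 622 of 655 hotspots and at 94.9% of all autosomal hotspots, so the 2 columns were not counted alike, and how they differ is not given in the sources used here.

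The DMC1 signal per unit of H3K4me3 enrichment had a median of 7.46 at the discordant hotspots (quartiles 4.28 and 12.3, range 0.521 to 71.5). It was 14.8 at SPRT-side hotspots, a ratio of 0.504 that was under 1 on 19 of 19 autosomes. It was 4.81 at matched hotspots, a ratio of 1.55 that was above 1 on 19 of 19 autosomes, where it ran from 1.09 to 2.42. The order held at each level of H3K4me3. In the lowest quartile of enrichment the medians were 9.14 for discordant, 14.0 for SPRT-side and 6.33 for matched hotspots. In the highest they were 6.57, 15.2 and 4.92.

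Part of this order went with the H3K4me3 fraction. Discordant hotspots with 25 to 37.5% of H3K4me3 from B6 (n = 354) had 8.30 units of DMC1 signal per unit of enrichment, and those with 50 to 62.5% (n = 71) had 6.15. At like fractions the matched hotspots were lower, with 4.84 (n = 154) against 6.78 (n = 222) from 37.5 to 50%, and 4.66 (n = 332) against 6.15 from 50 to 62.5%. From 62.5 to 75% only 8 discordant hotspots remained, and their 5.40 stood beside 5.07 at 130 matched hotspots.

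**Figure D3:**
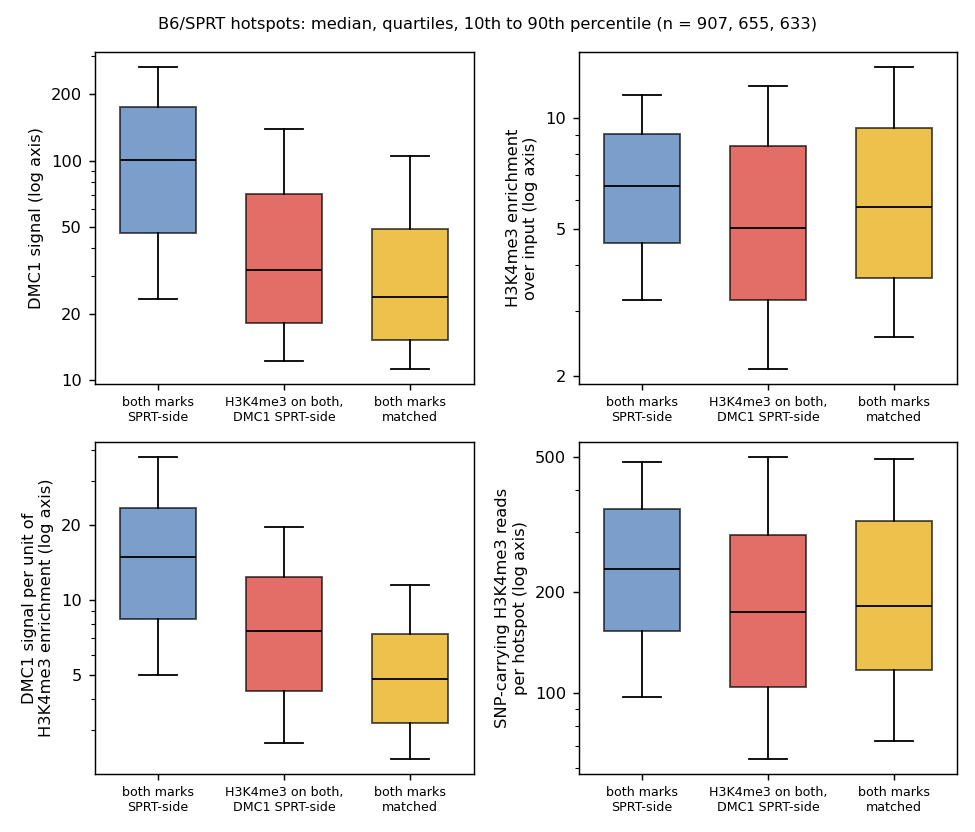
DMC1 signal, H3K4me3 enrichment, DMC1 signal per unit of enrichment, and SNP-carrying H3K4me3 reads per hotspot (log axes) for SPRT-side, discordant and matched hotspots; boxes give median and quartiles and whiskers the 10th and 90th percentiles. The discordant hotspots (red) sit between the other sets in DMC1 signal (median 31.8) and DMC1 per H3K4me3 (7.46) and have a median enrichment of 5.04.

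Multiplying each mark by its fractions places the values on homologs. These products use the fractions that chose the sets, so they only describe them. On the SPRT chromosome the discordant hotspots had a median DMC1 signal of 28.3 and a median H3K4me3 enrichment of 3.18, and on the B6 chromosome 3.11 and 1.84. The DMC1 signal per unit of H3K4me3 was 10.5 on SPRT (16.8 at SPRT-side and 5.85 at matched hotspots). On B6 it was 1.87 (2.15 at SPRT-side and 3.71 at matched hotspots). The B6 value at SPRT-side hotspots rests on a median H3K4me3 of 0.873. With the background subtractions the median B6 fraction of H3K4me3 at SPRT-side hotspots went from 14.7% to 7.05% and 3.67%, so their B6 value is not set against that of the discordant hotspots. Where enrichment exceeded 1, the median went from 35.8% to 31.3% and 27.4% at discordant hotspots. At matched hotspots it went from 54.9% to 56.0% and 52.5%. The values of 1.87 and 3.71 are without subtraction and share this limit.

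**Figure D4:**
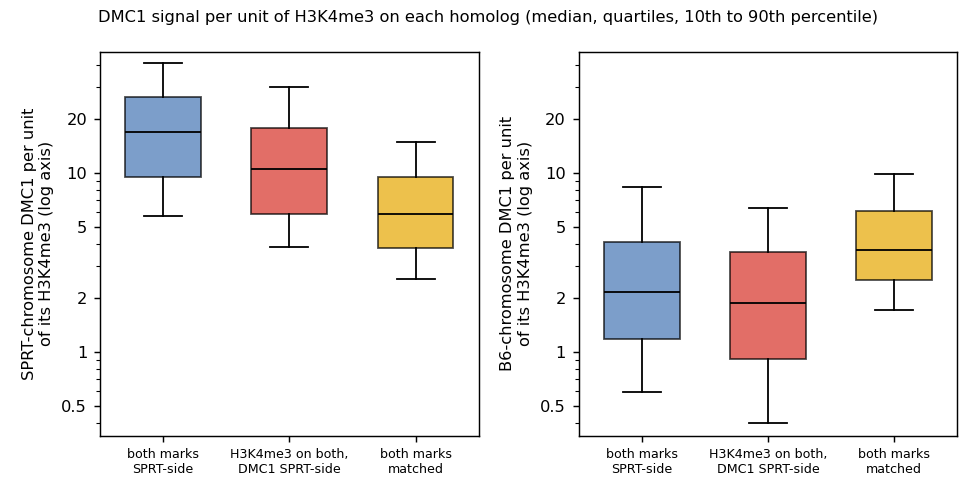
DMC1 signal per unit of H3K4me3 enrichment on the SPRT chromosome (left) and on the B6 chromosome (right), on the same log axis, for the 3 sets; boxes give median and quartiles and whiskers the 10th and 90th percentiles. The medians of the discordant hotspots are 10.5 and 1.87.

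STUS/B6 gives a DMC1 library whose signal and fractions the rule did not use, with the same B6 homolog and another partner. Whether it entered the authors' naming of alleles, on which the rule rests, is not given in the sources used here. The share found and the alleles named there can thus follow in part from that naming. A hotspot center lay within 500 bp at 529 of 655 discordant hotspots (80.8%, interval 77.6 to 83.6%), against 83.8% of all 4122 B6-allele hotspots, which is close to this background. The median distance was 61 bp. Of the 529, 510 were attributed to the B6 allele, 19 had no allele assigned and 0 were attributed to STUS. Matched hotspots were found more often (92.1%, interval 89.7 to 94.0%) and SPRT-side hotspots at 82.4%. The 126 discordant hotspots that were not found had a lower DMC1 signal in B6/SPRT (median 21.2) than those found (37.8).

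Most of the found positions had DMC1 mainly on the partner chromosome in STUS/B6 as well. Of 513 discordant hotspots with a fraction in STUS/B6, 359 (69.98%, interval 65.9 to 73.8%) had under 25% of DMC1 reads from B6 and are called STUS-side. The background was 50.3% of the 5588 B6-allele hotspots of STUS/B6 with a fraction, and 62.2% of those B6-allele hotspots of B6/SPRT that were found (n = 3309, interval 60.6 to 63.9%). SPRT-side hotspots were STUS-side at 710 of 737 positions (96.3%, interval 94.7 to 97.5%), and matched hotspots at 65 of 540 (12.0%, interval 9.56 to 15.1%). The intervals of the 3 sets did not overlap, and the discordant share lay between the others on 19 of 19 autosomes, where it ran from 59.1% (chromosome 5) to 82.6% (chromosome 6). The other discordant hotspots split into 123 (24.0%) cut on both chromosomes and 31 (6.04%) cut mainly on B6 in STUS/B6. The median B6 fraction was 8.33% (quartiles 1.89 and 33.3%), against 1.05% at SPRT-side and 50.9% at matched hotspots.

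**Figure D5:**
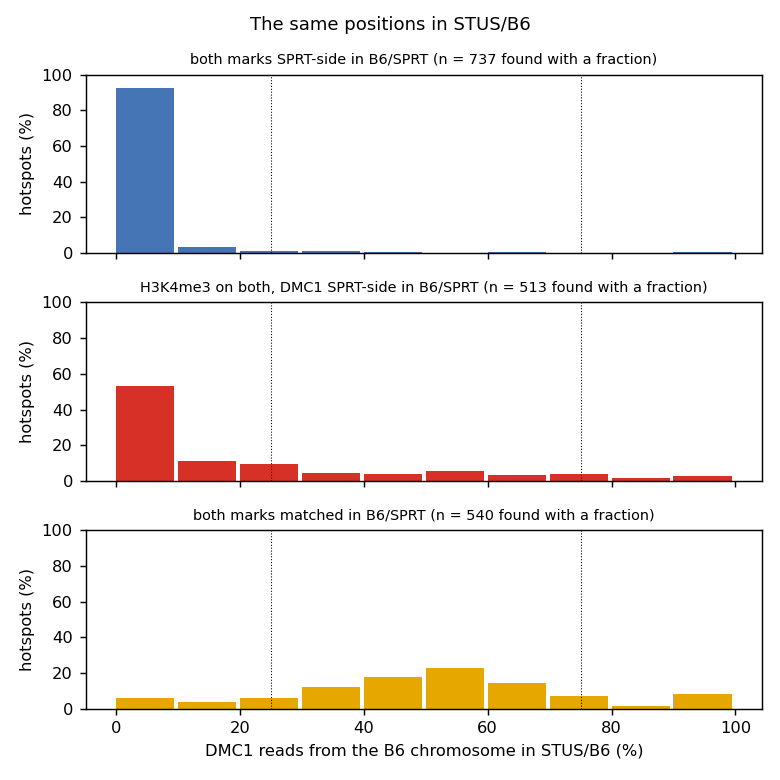
Distribution of the percent of DMC1 reads from B6 in STUS/B6 (x axis, bins of 10 points) at positions of SPRT-side, discordant and matched hotspots of B6/SPRT, as a percent of the hotspots found with a fraction (y axis). Of the discordant hotspots 53.4% fall in the lowest bin, with a tail over the whole range, while matched hotspots center on 50.9%.

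The shares were also set side by side at like H3K4me3 fractions. From 25 to 37.5% of H3K4me3 from B6, where most discordant hotspots lay, 229 of 278 were STUS-side (82.4%, interval 77.5 to 86.4%) and 9 of 12 matched hotspots were, with a wide interval (46.8 to 91.1%) that held the discordant share. Of discordant hotspots with 37.5 to 50% of H3K4me3 from B6, 108 of 178 (60.7%, interval 53.3 to 67.5%) were STUS-side, against 24 of 135 matched hotspots (17.8%, interval 12.2 to 25.1%). From 50 to 62.5% it was 18 of 52 (34.6%, interval 23.1 to 48.2%) against 26 of 281 (9.25%, interval 6.39 to 13.2%). From 62.5 to 75% it was 4 of 5 against 6 of 112. By their DMC1 fraction in B6/SPRT it went from 90.5% (interval 83.3 to 94.7%) at under 5% to 51.1% (interval 40.9 to 61.3%) at 20 to 25%. The excess over the 62.2% of found B6-allele hotspots depended on the limits. With the background subtractions described for H3K4me3, the STUS-side share of the hotspots that met the limits was 62.7% and 58.7%. It was 61.3% with a Wilson interval wholly inside 25 to 75% and 50.8% with H3K4me3 from 40 to 60%, so the excess was lost under these alternatives. The B6 chromosome is shared by both crosses, so the 2 libraries are not independent readings of its sequence.

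Discordant hotspots grouped by their state in STUS/B6 also differed in B6/SPRT. Those STUS-side had a median enrichment of 5.01 and 33.3% of H3K4me3 from B6. Those cut on both chromosomes in STUS/B6 had more H3K4me3 (enrichment 7.17) with 42.6% from B6, and a like DMC1 signal in B6/SPRT (40.7 against 37.4). In STUS/B6 itself the DMC1 signal was higher at STUS-side positions (median 112.9) than at those cut on both (62.4). The 1122 hotspots bound on both homologs without a DMC1 fraction in B6/SPRT were STUS-side at 577 of 878 positions (65.7%, interval 62.5 to 68.8%). This lay between the 69.98% of discordant hotspots and the 62.2% of all found B6-allele hotspots. Its interval overlapped those of both.

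In hybrids without the B6 allele few of these positions held a hotspot. The authors named alleles by comparison with mice carrying other alleles. The label that chose these hotspots can thus fix this outcome in advance, and the counts here only describe it. Of 655 discordant hotspots, 2 had a center within 500 bp in Hum/SPRT, both of the humanized allele, and 2 in CAST/SPRT, both of the CAST allele. In STUS/Hum it was 4, of which 3 were of the humanized and 1 of the STUS allele. In the same order, the counts were 5, 1 and 5 of 633 matched and 3, 4 and 5 of 907 SPRT-side hotspots. Counts this small do not tell the sets apart, and no share over all B6-allele hotspots is given here.

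The discordant hotspots were spread over the genome. They made up 18.9% (chromosome 5) to 33.3% (chromosome 18) of the B6-allele hotspots with both fractions on an autosome, the median distance between neighbors was 2206 kb, and 9 neighboring pairs lay within 10 kb. Centers lay within a RefSeq protein-coding gene at 363 of 655 (55.4%, interval 51.6 to 59.2%), against 58.3% of SPRT-side and 63.5% (interval 59.7 to 67.2%) of matched hotspots. No such share over all B6-allele hotspots is given here, so no difference between the sets is read from these values. Of 622 discordant hotspots on the 18 autosomes of the gene start table, 19 (3.05%, interval 1.96 to 4.72%) lay within 1 kb of a gene start, where H3K4me3 can also come from transcription. It was 11 of 874 SPRT-side (1.26%, interval 0.704 to 2.24%) and 6 of 611 matched hotspots (0.982%, interval 0.451 to 2.13%). Over all autosomes it was 64 of 4122 B6-allele hotspots and 329 of 18522 hotspots of any allele. These totals include chromosome 18, for which no starts were listed. The 19 discordant hotspots near a gene start had a median of 34.9% of H3K4me3 from B6, close to the 35.8% of the whole set. The part of transcription in their H3K4me3 was not tested.

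The strongest discordant hotspots are named by the gene they lie in or nearest to, which serves as a landmark only, since no transcript was measured. The 10 with the largest DMC1 signal ran from 331.4 to 594.3. The first lay on chromosome 12 at 3513436, 2.62 kb outside Asxl2, a Polycomb-associated gene. Its DMC1 signal was 594.3 in B6/SPRT with 18.7% from B6, and 330.7 in STUS/B6 with 20.4% from B6. Its H3K4me3 in B6/SPRT was 56.5% from B6 over 588 reads (interval 52.4 to 60.4%). DMC1 thus leaned from B6 in both crosses, while H3K4me3 did not in B6/SPRT and was not measured in STUS/B6.

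The next lay within Mbnl2, a regulator of splicing (chromosome 14, 120317473), with a DMC1 signal of 433.6 in B6/SPRT and 218.0 in STUS/B6, 4.27 and 8.88% of it from B6. The hotspot in Rnf13, which encodes an E3 ubiquitin ligase (chromosome 3, 57746935), had 427.2 and 488.0, with 13.0 and 1.30% from B6. Both had H3K4me3 near the lower limit, at 30.7 and 27.3% from B6. The hotspot in Rbpj, the transcription factor of Notch signaling (chromosome 5, 53637438), had a DMC1 signal of 331.4 and 524.8 with 2.45 and 4.96% from B6, and H3K4me3 at 29.2%. The hotspot 0.731 kb from Gm31195 (chromosome 1, 13845769) was of the same kind, with 338.6 and 553.1, 3.60 and 9.75% of it from B6. At 8 of these 10 hotspots B6 gave under 25% of DMC1 in STUS/B6 as well. The share was 69.98% of discordant and 62.2% of all B6-allele hotspots found with a fraction, from which 10 hotspots cannot be told apart. The clearest exception lay on chromosome 7 at 3283195, 1.40 kb from the pseudogene Gm5340. There B6 gave 3.69% of a DMC1 signal of 346.7 in B6/SPRT but 75% of a signal of 67.8 in STUS/B6.

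By DMC1 signal per H3K4me3, the hotspot in Usp29, a ubiquitin-specific protease gene (chromosome 7, 6752555), was first with 71.5. It had a DMC1 signal of 367.1 on an enrichment of 5.14, with 0.274% of DMC1 and 26.1% of 218 H3K4me3 reads from B6, and in STUS/B6 its signal was 585.6 with 0.466% from B6. Faf1 (59.0, chromosome 4, 109824439) and Itsn2 (51.6, chromosome 12, 4595521) followed. The lowest was a hotspot in Has1, a hyaluronan synthase gene (chromosome 17, 17843821), with 0.521 from a DMC1 signal of 8.99 on an enrichment of 17.2. The hotspot in Purb (chromosome 11, 6474798) had the largest enrichment of the set, 35.7, and a DMC1 signal of 21.6, which gave 0.604. At Purb B6 gave 49.6% of 1179 H3K4me3 reads, 7.69% of DMC1 in B6/SPRT and 1.56% in STUS/B6.

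Hotspots with H3K4me3 nearest to 50% from B6 and at least 100 informative reads had H3K4me3 split about evenly between the homologs. The best covered of these 6 lay 0.949 kb from Yaf2, which encodes a Polycomb cofactor (chromosome 15, 93337884). B6 gave 50.1% of its 1754 H3K4me3 reads (interval 47.7 to 52.4%), 2.73% of a DMC1 signal of 68.5 in B6/SPRT and 1.89% of a signal of 231.3 in STUS/B6. Whether transcription gave part of the H3K4me3 so near to Yaf2 was not tested. In Ank1, an ankyrin gene (chromosome 8, 23027424), the values were 49.8% of 333 H3K4me3 reads, and 5 and 1.25% of DMC1. In Prickle1, a planar cell polarity gene (chromosome 15, 93584088), they were 50.4% of 137 reads, and 1.80 and 0.366% of DMC1, on an enrichment of 1.82. In contrast, the hotspot 19.7 kb from Sh3glb1 (chromosome 3, 144664001) had 22.8% of DMC1 from B6 in B6/SPRT and 48.5% in STUS/B6.

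Hotspots with the largest difference between the marks had most H3K4me3 on B6 and little DMC1 there. At 76.8 kb from Isl1, a LIM homeobox gene (chromosome 13, 116386461), B6 gave 70.3% of 290 H3K4me3 reads, 6.45% of DMC1 in B6/SPRT and 13.4% in STUS/B6. In Itsn1, an endocytic scaffold gene (chromosome 16, 91905243), B6 gave 61.6% of 737 H3K4me3 reads and 5.41 and 3.91% of DMC1. In Clec2l, a C-type lectin gene (chromosome 6, 38677910), B6 gave 72.7% of 819 H3K4me3 reads, the highest of the set, with 17.4% of a DMC1 signal of 12.6 in B6/SPRT and 3.57% of a signal of 43.7 in STUS/B6. In Ust, which encodes a sulfotransferase (chromosome 10, 8357855), B6 gave 67.0% of 288 H3K4me3 reads and 6.76% of DMC1. Its enrichment was only 2.13, and no hotspot was found there in STUS/B6.

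In STUS/B6 the largest DMC1 signal at a discordant position was 730.6, with 0.945% from B6, on chromosome 12 at 78089978, 75.6 kb from Gm24994. In B6/SPRT it had a signal of 193.9 with 1.35% from B6, and H3K4me3 at 25.9%. The hotspot in Ampd1, the AMP deaminase of muscle (chromosome 3, 103074870), had 582.9 in STUS/B6 with 1.33% from B6, and 139.9 in B6/SPRT with 20.2% from B6. Both positions had under 25% of DMC1 from B6 in either cross, and they were picked for their signal in STUS/B6. Over the found discordant hotspots the signal in STUS/B6 had a median of 85.4 and was 2.08 times that in B6/SPRT (1.999 times at SPRT-side and 2.58 times at matched hotspots), and since the scaling of the libraries is not stated, these ratios are compared only between the sets.

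The limits of the rule ran through a continuous range. Just inside the DMC1 limit lay hotspots in Phc3 (24.8% from B6) and Gdi2 (24.5%), and just outside those in Lin54 (25%) and 32.05 kb from LOC115486959 (25%). In STUS/B6 B6 gave 76.8% of DMC1 at Phc3 and 6.18% near LOC115486959, so neighbors across the limit could go either way there. Just inside the lower H3K4me3 limit lay hotspots 413.5 kb from 4930412E21Rik and 1.54 kb from Gm40100 (25% each), and just outside those in Gm40918 (24.9%) and Tmcc3 (24.8%). At the upper limit the nearest inside were Clec2l and the hotspot near Isl1, and outside lay Kcnd2 at 81.0% of 21 reads and Otud7a at 84.0% of 213 reads.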

How the data were processed

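DMC1 SSDS of 5 hybrid genotypes (1 library each) and H3K4me3 ChIP-seq of B6/SPRT were used. Reads were mapped with BWA to mm10 per the submitters' processing notes. The authors called hotspots de novo, named the responsible PRDM9 allele from mice with other alleles, split reads between homologs by SNPs, and deposited 1 table per genotype, which was assigned to its sample by the alleles it names. The deposited DMC1 signal (heat) is the caller's value, and its scaling and cutoff are not given in the sources used here. The lowest listed signal at B6-allele hotspots was 7.50. The deposited fraction of DMC1 reads from B6 comes without read counts, so no interval can be given for it. The deposited H3K4me3 values are counts of ChIP and input coverage (3136355 and 355847 summed over autosomal hotspots), a ratio of enrichment over input, a fraction of reads from B6 and the number of informative reads (median 208). These were taken as pooled over samples. Another 13 columns, with p-values and a mark for shared hotspots, were not used.

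Medians, quartiles and 95% Wilson intervals were computed with Python 3.11.15, pandas 2.3.3, numpy 2.4.6 and scipy 1.17.1, and drawn with matplotlib 3.10.9. Centers within 500 bp were matched between tables, nearest first. Genes and gene starts are from RefSeq on GRCm38.p6, with no starts for chromosome 18. The computation was tested on simulated data. The hotspots and lists were chosen with earlier results of these data known. Named hotspots were the 10 with the largest DMC1 signal, 6 with at least 100 informative reads and H3K4me3 nearest to 50%, 6 with the largest difference between marks, 5 with the largest signal in STUS/B6, the 3 highest and 3 lowest in DMC1 per H3K4me3, and 2 on either side of each limit. A few of these are given only in the ranges. Alternatives covered the limits, read and signal minimums, matching windows, autosomes, counting intervals and a background subtraction.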

Additional observations from a re-analysis of the deposited data

How the results depend on the processing

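Of 136 values of 14 results under 13 alternatives, 98 moved by less than the spread over autosomes or their counting interval, or, for the number of hotspots, by less than 1.5 times, and none of the ratios of DMC1 signal or of DMC1 per H3K4me3 turned direction. Narrower limits shrank the set. With DMC1 under 10% from B6 there were 311 hotspots (12.2% of those with both fractions), of which 77.5% were found in STUS/B6 and 82.0% of those were STUS-side. With H3K4me3 from 40 to 60% there were 231 (9.09%), with 50.8% STUS-side, a median B6 fraction of 24.1% in STUS/B6 and 1.84% near a gene start. With a Wilson interval wholly inside 25 to 75%, chosen after seeing the data, there were 420, with 61.3% STUS-side, a median of 14.9% and a ratio of informative reads to matched hotspots of 1.003. With a DMC1 signal of at least 20 the ratios to SPRT-side hotspots were 0.479 for DMC1 signal, 0.905 for enrichment and 0.622 for DMC1 per H3K4me3, and 85.1% were found in STUS/B6. With at least 100 informative reads the ratio of enrichment to SPRT-side hotspots was 0.916. Matching within 200 bp found 69.0%. The middle autosome's ratio of informative reads to matched hotspots was 1.005.

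Subtracting 1 unit of enrichment as background was also chosen after seeing the data. Shared equally by the homologs it left 17.7% of hotspots in the set, with ratios to SPRT-side hotspots of 0.451 for DMC1 signal, 1.02 for enrichment and 0.995 for informative reads, and to matched hotspots of 1.0 for enrichment and 1.06 for informative reads. Of these 83.8% were found in STUS/B6 and 62.7% were STUS-side. With the B6 share of KO hotspots it left 371 (14.6%), with ratios to SPRT-side hotspots of 0.502, 1.11 and 1.09, and to matched hotspots of 1.09 and 1.17, while 85.4% were found, 58.7% were STUS-side and the median B6 fraction was 18.5%. The cause of these shifts was not tested. No paired analysis was possible because each genotype had 1 DMC1 library and H3K4me3 came in 1 column per genotype. Depth leaves a single H3K4me3 fraction uncertain by a median of 6.97 percentage points to either side.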
